A study of Mus musculus with 6 samples.

Results

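Ribosomes that stop on an mRNA can be struck from behind by the next one, and the cell recognises the collided pair and takes it apart. The ASC-1 complex, built around the helicase ASCC3, pulls the leading ribosome into its subunits after the 40S subunit has been ubiquitinated. EDF1 binds collided ribosomes and recruits GIGYF2 and the cap-binding protein 4EHP, the product of Eif4e2, which hold back new initiation on that mRNA. PELO and HBS1L enter a ribosome with an empty A site and, with the ATPase ABCE1, split it. Each splitting route leaves a 60S subunit that still carries the unfinished protein, and this is the substrate of the ligase Listerin, encoded by Ltn1.

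The 10 genes of these 3 routes were taken by gene symbol from the deposited table, which lists 21652 genes. They were Ascc1, Ascc2, Ascc3 and Trip4 of the ASC-1 complex, Edf1, Gigyf2 and Eif4e2 of the repression route, and Pelo, Hbs1l and Abce1 of the rescue route. Ribosome profiling, which counts mRNA fragments shielded by ribosomes, was done in MIN6, a line of insulin-secreting mouse cells from a pancreatic beta-cell tumour. One group carried the guide sgNT, read here as a control guide without a target, and the other the guide sgLTN1 against Ltn1, with 3 libraries in each group and no other treatment named. The labels do not say whether a group was 1 clone or a pool of edited cells, and nothing shows that its libraries are separate cultures. The p-values therefore reflect library-to-library spread that could be technical. Footprint number reflects both the amount of an mRNA and how densely ribosomes occupy it, and RNA-seq was not used here, so those cannot be told apart.

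Library totals ran from 4373467 to 11198735 counts. Ltn1 footprints were 141 to 145 CPM (counts scaled per 1000000 of the TMM-adjusted library size) in the sgNT libraries and 64.9 to 71.5 CPM in the sgLTN1 libraries, so the target followed the labels. Of the 9 beta-cell markers, Slc2a2 had at most 14 counts in a library, and together they took 122773 to 135104 CPM in sgNT and 125268 to 145911 CPM in sgLTN1. The 5 acinar and duct markers summed to 0.722 to 3.37 CPM and the 4 markers of fibroblasts, endothelium and blood to 8.40 to 12.5 CPM over all libraries. The 4 markers of other islet cells summed to 579 to 611 CPM in sgNT and 577 to 655 CPM in sgLTN1, most of it glucagon (Gcg), a hormone of alpha cells, at 532 to 601 CPM. Somatostatin (Sst), the hormone of delta cells, read 28.9 to 31.7 CPM in sgNT and 40.5 to 47.5 CPM in sgLTN1, with a log2 fold change of 0.50 (SE 0.09, edgeR adjusted p = 0.0620). Pancreatic polypeptide (Ppy) read 2.06 to 3.96 and 4.97 to 6.95 CPM, with 0.82 (SE 0.26, edgeR adjusted p = 0.176). For both the groups did not overlap, as for 20.2% of all tested genes, and neither passed an adjusted p of 0.05. Ghrl had at most 1 count in a library. The groups also did not overlap for 3 of the 8 beta-cell markers tested. Slc30a8 and Chga were higher in sgLTN1, at 0.23 (SE 0.07, edgeR adjusted p = 0.169) and 0.19 (SE 0.05, edgeR adjusted p = 0.150). Pdx1 was lower, at -0.12 (SE 0.07, edgeR adjusted p = 0.411). The part of these markers in the members' values was not tested.

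All 10 genes passed the filter on low counts, with 47 to 1445 counts in a library. The guides were compared with edgeR's quasi-likelihood test, its p-values adjusted by Benjamini-Hochberg over all tested genes. None of the members, 0 of 10, passed an adjusted p of 0.05, where 23 of all 12782 tested genes (0.180%) did. At an unadjusted p of 0.05 the count was 0 of 10, against 15.6% of tested genes. DESeq2, run on the same counts, called 0 of the 4 members to which it gave an adjusted p, and 227 genes in all. It gave the members the values of the authors' deposited DESeq2 results, where 227 of 2697 genes with an adjusted p (8.42%) were called. The 23 genes called were split into 11 higher and 12 lower. When libraries were scaled by total counts alone, 42 genes were called, 8 higher and 34 lower. The 23 calls became 9, 9 and 12 without sgNT libraries 1, 2 and 3 and 6, 4 and 333 without sgLTN1 libraries 1, 2 and 3, with 0 members called each time. Among the 10 members, the log2 fold changes lay between -0.19 and 0.05 with a median of -0.09, beside a median of -0.02 over all tested genes. Of the members, 8 were below 0, beside 52.7% of tested genes. These values depended on single libraries and on the scaling. Without sgNT library 3 the median of the members was -0.04 with 5 of 10 below 0, and without sgLTN1 library 2 it was -0.02 with 5 of 10 below 0, beside 50.8% and 49.6% of tested genes. Without sgLTN1 library 3 the median was -0.13 with 8 below 0, beside a median of -0.02 and 54.0% below 0 over all tested genes. With total counts it was -0.16 with 10 of 10 below 0, Ascc3 and Gigyf2 included, beside a median of -0.09 and 66.9% below 0 over all tested genes. The groups did not overlap for 2 members, Ascc2 and Abce1, where 20.2% of tested genes showed such separation. Both were lower in sgLTN1, a separation in that direction that 10.1% of tested genes showed.

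**Figure D1:**
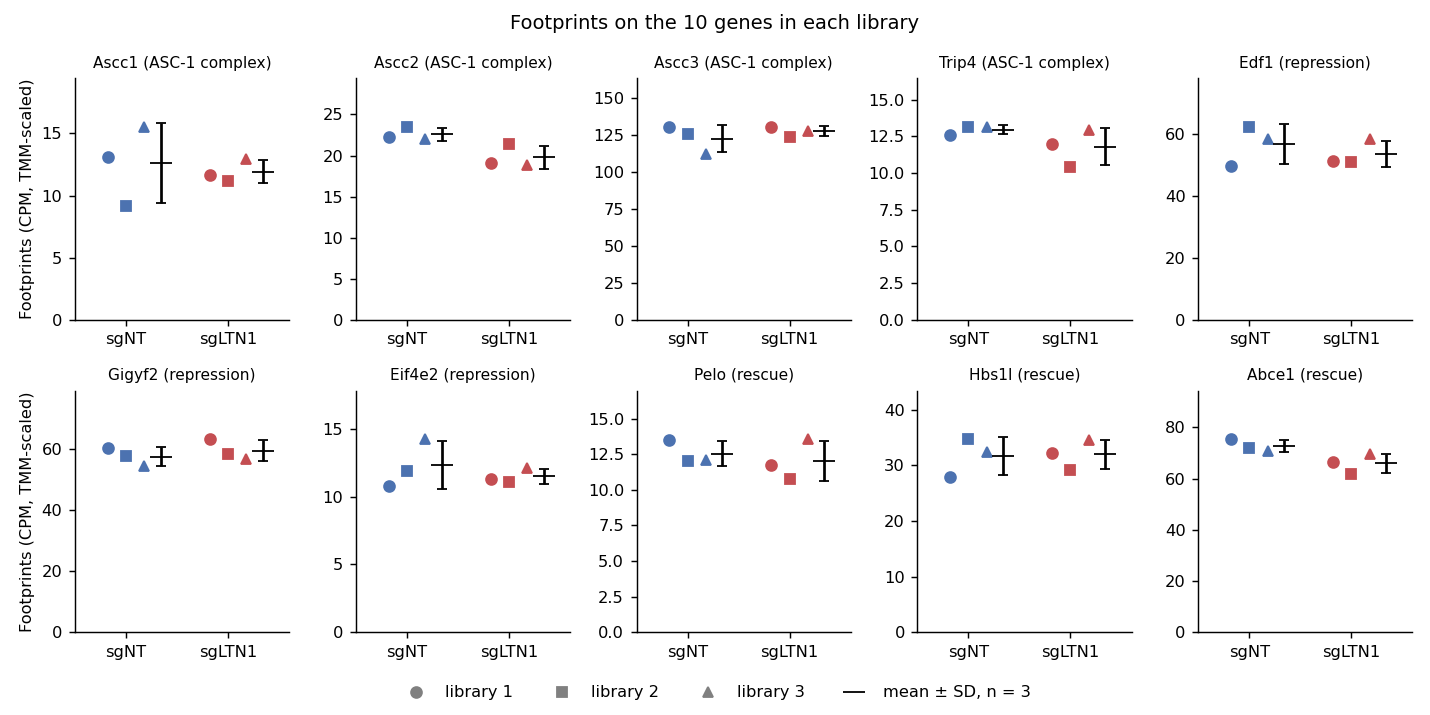
Footprints on each of the 10 genes in TMM-scaled CPM (vertical axis, from 0), with 1 symbol per library (sgNT blue, sgLTN1 red) and the mean ± SD of 3 libraries in black. The sgLTN1 values of Ascc2 (18.9 to 21.4 CPM) and Abce1 (61.9 to 69.5 CPM) sit below the sgNT values (22.0 to 23.5 and 70.8 to 75.4 CPM), and those of the other 8 genes overlap.

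In the ASC-1 complex, footprints on Ascc3 (ENSMUSG00000038774.10), the helicase that does the splitting, were 130, 125 and 112 CPM in sgNT libraries 1 to 3 and 130, 124 and 128 CPM in sgLTN1 libraries 1 to 3. The lowest value was that of sgNT library 3, and the other 5 lay within 124 to 130 CPM. The group means were 122 ± 9.21 and 127 ± 3.40 CPM (mean ± SD, n = 3), and the log2 fold change was 0.05 (SE 0.07). The 95% interval ran from 0.931 to 1.16 times the control level, and on the log2 scale it was the narrowest of the 10 genes.

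Ascc2 (ENSMUSG00000020412.17) encodes the subunit that binds ubiquitin chains and so ties the complex to ubiquitinated ribosomes. It read 22.2, 23.5 and 22.0 CPM in sgNT and 19.0, 21.4 and 18.9 CPM in sgLTN1. Every sgLTN1 library lay below every sgNT library, and the gap between the nearest of them, 21.4 and 22.0 CPM, was smaller than the SD within sgLTN1. The means were 22.6 ± 0.808 and 19.8 ± 1.40 CPM, a log2 fold change of -0.19 (SE 0.10) that did not pass (edgeR adjusted p = 0.373 over all tested genes). Its interval reached from 0.755 to 1.02 times the control level. Ascc2 had the smallest p of the 10 members, at rank 2520 among all tested genes.

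The letters upstream of Ascc2 are shown because it is 1 of the 2 members whose libraries separated, as did those of 20.2% of tested genes. The 250 bases before its annotated start, on the plus strand of GRCm38.p6 at chr11:4637500-4637749 in RefSeq, were 59.6% G or C. Capitals mark both matches to GGGCGG, the GC box, on either strand, which begin 118 and 57 bases before the start.
Ascc2: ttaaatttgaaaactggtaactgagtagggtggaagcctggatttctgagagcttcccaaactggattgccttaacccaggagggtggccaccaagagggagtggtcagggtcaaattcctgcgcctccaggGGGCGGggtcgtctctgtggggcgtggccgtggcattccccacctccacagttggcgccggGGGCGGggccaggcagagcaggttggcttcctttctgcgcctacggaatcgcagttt
A GC box stood in at least 1 such window of 8 of the 10 members, Pelo and Abce1 being without one, and in 32.7% of the 32851 windows in the RefSeq table. Members were counted by gene, with 2 windows for Ascc1 and Trip4 and 3 for Eif4e2, and the share by window. All members were tested genes, while the share was not limited to tested genes. The count and the share are therefore unlike measures, here and for the motifs below. The match is a description of the sequence, and no readout here measured promoter activity.

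Trip4 (ENSMUSG00000032386.16), the zinc-finger subunit that gave the complex its name, read 12.6, 13.1 and 13.2 CPM in sgNT and 12.0, 10.4 and 12.9 CPM in sgLTN1. The control libraries lay close together, with a SD of 0.306 CPM, and sgLTN1 library 3 lay among them. The log2 fold change was -0.15 (SE 0.13), with an interval from 0.741 to 1.09 times the control level.

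Ascc1 (ENSMUSG00000044475.15), the subunit with an RNA-binding KH domain, was the member measured least evenly among the sgNT libraries, but not among the sgLTN1 libraries. Its sgNT libraries read 13.1, 9.15 and 15.5 CPM and its sgLTN1 libraries 11.6, 11.2 and 12.9 CPM, so the whole sgLTN1 range lay inside the sgNT range. The log2 fold change of -0.05 (SE 0.18) left an interval from 0.733 to 1.28 times the control level. Leaving out sgNT library 2 gave -0.27 and leaving out sgNT library 3 gave 0.14, neither of which passed the threshold.

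For the repression route, Edf1 (ENSMUSG00000015092.10) encodes the small protein that recognises the collided pair. It read 49.5, 62.2 and 58.2 CPM in sgNT and 51.1, 50.8 and 58.4 CPM in sgLTN1. The lowest value of all 6 libraries and the highest were both in sgNT. The means were 56.7 ± 6.50 and 53.4 ± 4.27 CPM. The log2 fold change was -0.10 (SE 0.10), and the interval spanned 0.801 to 1.08 times the control level.

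Gigyf2 (ENSMUSG00000048000.16), the scaffold that joins the collided ribosome to the cap-binding repressor, read 60.5, 57.9 and 54.4 CPM in sgNT and 63.4, 58.4 and 56.7 CPM in sgLTN1. In both groups the values spanned less than 7 CPM and overlapped. The log2 fold change was 0.05 (SE 0.08), and the interval ran from 0.918 to 1.17 times the control level. Eif4e2 (ENSMUSG00000026254.18), which competes with the initiation factor eIF4E for the mRNA cap, read 10.8, 11.9 and 14.2 CPM in sgNT and 11.3, 11.1 and 12.1 CPM in sgLTN1. It rested on 47 to 125 counts a library, the fewest of the members, and its log2 fold change of -0.10 (SE 0.14) had an interval from 0.757 to 1.15 times the control level.

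In the rescue route, Pelo (ENSMUSG00000042275.10) encodes the relative of the termination factor eRF1 that enters the empty A site. It read 13.5, 12.0 and 12.1 CPM in sgNT and 11.7, 10.8 and 13.6 CPM in sgLTN1, and the highest value of each group was nearly the same. Its log2 fold change was -0.07 (SE 0.13), with an interval from 0.775 to 1.17 times the control level. Hbs1l (ENSMUSG00000019977.17), the GTPase that delivers PELO, read 28.0, 34.8 and 32.4 CPM in sgNT and 32.2, 29.2 and 34.5 CPM in sgLTN1. The sgLTN1 values all lay inside the sgNT range, and the log2 fold change was -0.01 (SE 0.10), with an interval from 0.848 to 1.17 times the control level.

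Abce1 (ENSMUSG00000058355.9) encodes the iron-sulfur ATPase that drives splitting both here and after ordinary termination. It read 75.4, 71.9 and 70.8 CPM in sgNT and 66.4, 61.9 and 69.5 CPM in sgLTN1. The groups did not overlap, with 1.31 CPM between the highest sgLTN1 library and the lowest sgNT library. That gap was smaller than the SD within either group. The means were 72.7 ± 2.43 and 65.9 ± 3.81 CPM, a log2 fold change of -0.14 (SE 0.07) that did not pass (edgeR adjusted p = 0.392 over all tested genes). Its 95% interval ran from 0.808 to 1.02 times the control level.

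The window upstream of Abce1 is shown beside that of Ascc2 for the same reason. It lies on the minus strand of GRCm38.p6 at chr8:79711741-79711990 in RefSeq, with 60.4% G or C, and is printed in the direction of the gene. Capitals mark the match to TGACGTCA, the cAMP response element, which begins 10 bases before the start.
Abce1: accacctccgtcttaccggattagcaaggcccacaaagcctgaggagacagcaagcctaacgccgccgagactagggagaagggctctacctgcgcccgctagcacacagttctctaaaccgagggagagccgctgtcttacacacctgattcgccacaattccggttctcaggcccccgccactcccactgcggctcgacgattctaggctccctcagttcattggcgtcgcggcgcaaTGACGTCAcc
None of the other 9 members held this element in the 250 bases, and 1.55% of all windows did. The letters TGATGNAA of the C/EBP-ATF response element, searched on both strands with N for any base, were in no member's window and in 3.45% of all windows. CCAAT was found in the windows of Edf1, Gigyf2 and Abce1, and in 33.8% of all windows.

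**Figure D2:**
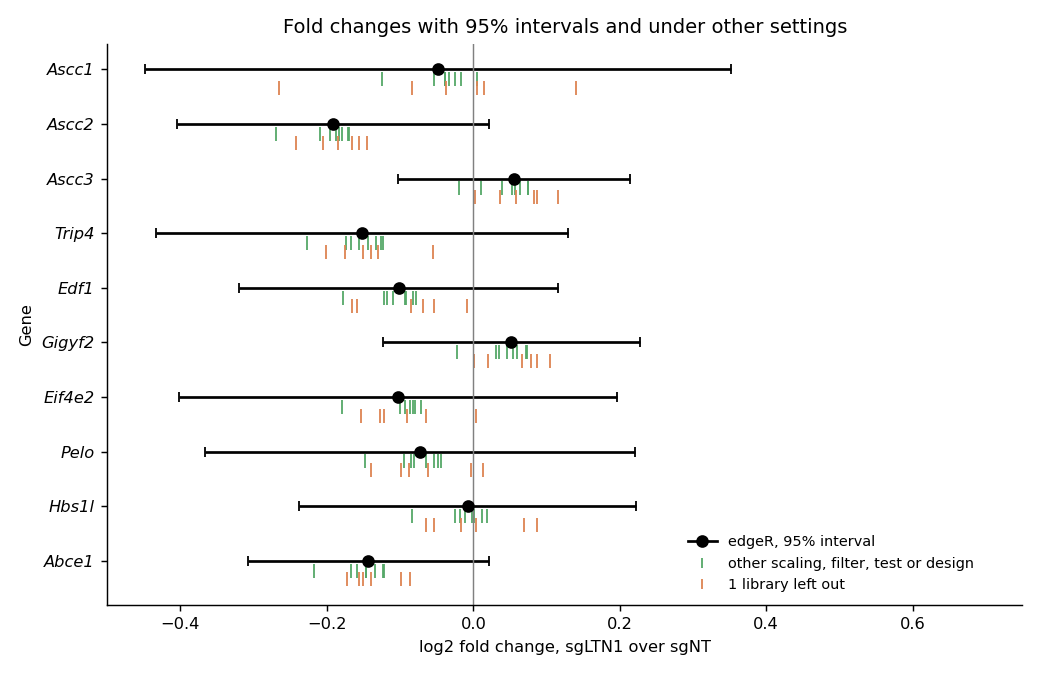
Log2 fold change of sgLTN1 over sgNT (horizontal axis) for each gene, as a black point with its 95% interval from edgeR, with ticks for other scalings, filters, tests and designs (green) and for fits without 1 library (orange). Every interval crosses 0, the widest being that of Ascc1 (-0.45 to 0.35) and the narrowest that of Ascc3 (-0.10 to 0.21).

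Summed over each route, footprints differed by less than the spread between libraries for the ASC-1 complex, at 171 ± 7.51 CPM in sgNT and 171 ± 3.54 CPM in sgLTN1. The repression genes summed to 127 ± 5.60 and 124 ± 3.63 CPM. For the rescue genes the sums were 117, 119 and 115 CPM in sgNT and 110, 102 and 118 CPM in sgLTN1, with sgLTN1 library 3 inside the control range. Ascc3 made up most of the first sum and Abce1 most of the third, so these sums largely follow those genes. No coding lengths were used here, so levels are not ranked between genes.

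Within a complex, the balance between subunits can be followed as a ratio of CPM values in the same library, which the scaling of libraries does not alter. The log2 ratio of Ascc2 to Ascc3 was -2.55, -2.41 and -2.35 in sgNT and -2.78, -2.53 and -2.75 in sgLTN1. The means differed by -0.25, the most of the 7 ratios, with SDs of 0.10 and 0.14, and sgLTN1 library 2 lay just inside the control range. Trip4 to Ascc3 was -3.37, -3.26 and -3.09 in sgNT and -3.44, -3.57 and -3.30 in sgLTN1, with a difference of -0.20. The remaining differences, of Ascc1 to Ascc3, Eif4e2 to Gigyf2, Edf1 to Gigyf2, Hbs1l to Pelo and Abce1 to Pelo, were between -0.14 and 0.08, and the groups overlapped in all 7 ratios.

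**Figure D3:**
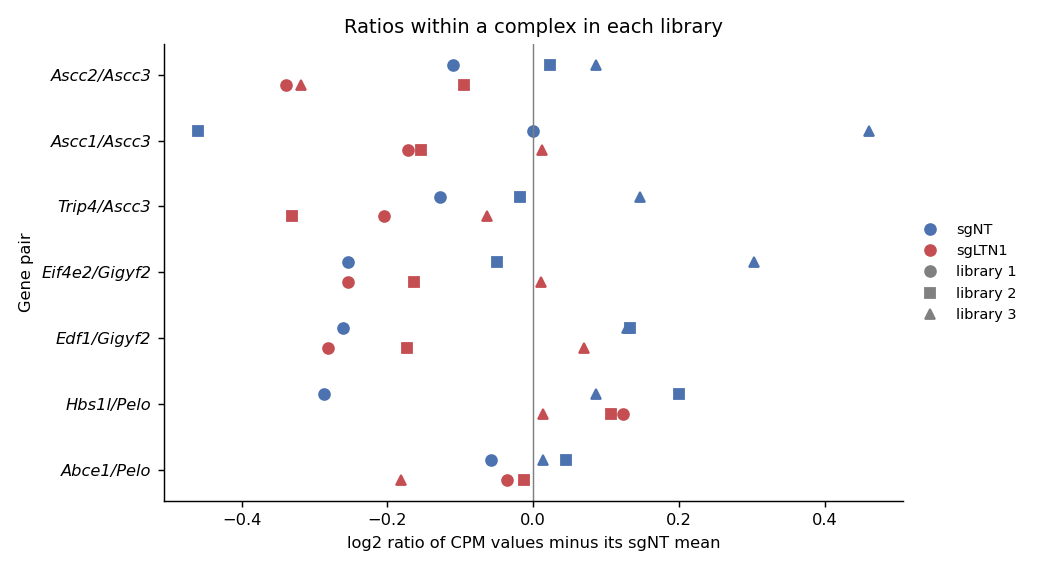
Log2 ratio of CPM values for 7 pairs of genes of the same route in each library, drawn as the distance from the sgNT mean of that pair (horizontal axis), with sgNT in blue and sgLTN1 in red. The groups overlap in every pair, and the largest shift of the mean is -0.25 for Ascc2 to Ascc3.

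How evenly the replicate libraries read a gene was compared with counting noise through the chi-square per degree of freedom, which averages 1 when libraries differ only by sampling. In sgNT it was 5.39 for Ascc1, 3.96 for Edf1, 3.23 for Ascc3 and 2.02 for Hbs1l, and between 0.0344 and 1.18 for the other 6. In sgLTN1 it reached 2.05 for Edf1 and was between 0.160 and 1.66 for the other 9. Each value rests on 3 libraries, so sampling alone can put a single one above or below 1. Ascc1 was therefore measured less evenly among the control libraries than Trip4, a gene of like count, whose value was 0.0344. The standard error of the log2 fold change was 0.07 for Ascc3 and Abce1, which held 5304 and 2882 counts over the 6 libraries, and 0.13 to 0.18 for Ascc1, Trip4, Eif4e2 and Pelo, which held 495 to 514.

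**Figure D4:**
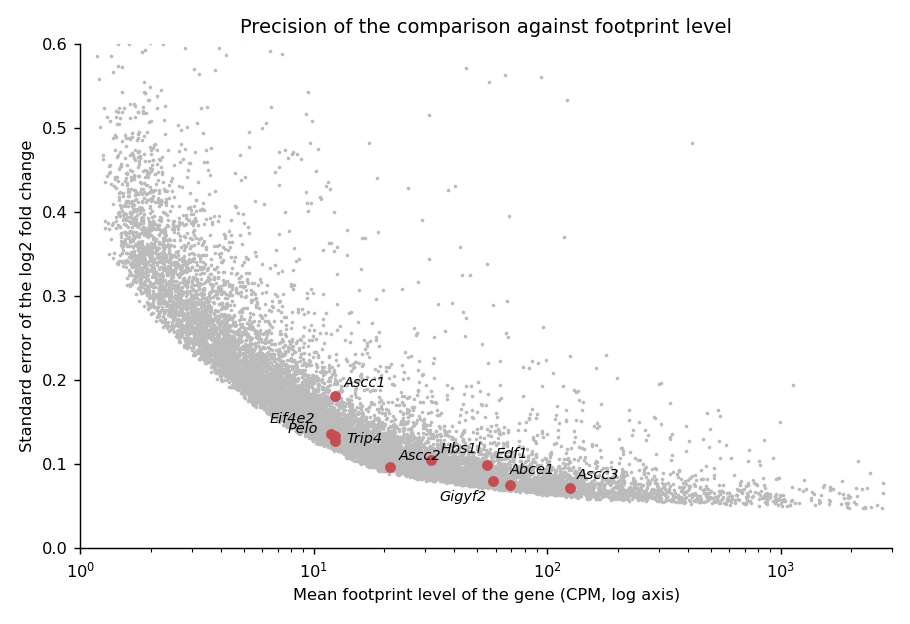
Standard error of the log2 fold change (vertical axis) against mean CPM over the 6 libraries (horizontal log axis) for all tested genes within the axis limits (grey) and the 10 genes (red). Ascc3 at 125 CPM has a standard error of 0.07, and Ascc1 at 12.3 CPM has the largest of the 10, 0.18.

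Some members share genomic ground with other genes, and whether the counting used strand is not given in the sources used here. By the RefSeq spans, Pelo lies wholly within Itga1, an integrin gene on the same strand. Itga1 had a mean of 7.63 ± 1.73 CPM in sgNT and 7.56 ± 0.973 CPM in sgLTN1. The span of Abce1 overlaps that of Anapc10, a gene of the anaphase-promoting complex on the opposite strand, which read 5.69 ± 1.85 and 4.96 ± 1.42 CPM. Ascc1 overlaps Anapc16 and Trip4 overlaps Pclaf, both on opposite strands, and these neighbours had log2 fold changes of -0.15 (SE 0.17) and -0.16 (SE 0.13). Gigyf2 overlaps Kcnj13, which held 1 to 6 counts a library. The part that shared reads play in the members' values was not tested.

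In the authors' deposited table, made with DESeq2, the members' log2 fold changes ran from -0.17 for Ascc2 to 0.08 for Ascc3. These are the same values as in the DESeq2 run above, so they are not a second, independent result. Only Ascc3, Edf1, Gigyf2 and Abce1 had an adjusted p there, since none was given below a mean normalized count of 309, and those of the other 6 were at most 209. Their adjusted p-values in the authors' deposited table were 0.669, 0.742, 0.747 and 0.510, while 8.42% of the 2697 genes with an adjusted p were called.

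The 10 members were then set beside 66 other genes of ribosome quality control and its relatives, of which 65 had enough counts to be tested. Ltn1 was the 1 gene of these 65 that passed in edgeR's test. The 16 genes of collision sensing and 40S ubiquitination had 8 above and 8 below 0 and a median log2 fold change of -0.05. In that list the 2 smallest p-values belonged to Rnf10, the ligase that ubiquitinates uS3, with -0.34 (SE 0.11, edgeR adjusted p = 0.177), and to G3bp2, a partner of the deubiquitinase USP10, with -0.14 (SE 0.07, edgeR adjusted p = 0.355).

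Among the 11 genes of 60S quality control, which act on the product of splitting, 1 fell, Ltn1 itself, and the median was -0.04. Its log2 fold change was -1.09 (SE 0.07, edgeR adjusted p = 9.24e-05). Ankzf1, which releases the nascent chain from the 60S subunit, had the next smallest p in that list, with -0.29 (SE 0.12, edgeR adjusted p = 0.275) and overlapping groups. The 4 stall sensors had a median of 0.01, with the kinase gene Eif2ak4 at 0.25 (SE 0.15) and its activator Gcn1 at 0.08 (SE 0.06), neither past the threshold.

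For the Ski complex, the exosome and related nucleases, which degrade the mRNA of a stalled ribosome, 11 of 15 genes were below 0 with a median of -0.09, and N4bp2 (-0.24, SE 0.16) and Exosc9 (-0.13, SE 0.10) had the smallest p-values. Of the 10 tested partners of 4EHP and cap-binding relatives, 6 were below 0 with a median of -0.02. The GW-repeat protein gene Tnrc6a (0.29, SE 0.12, edgeR adjusted p = 0.277) and the helicase gene Ddx6 (-0.15, SE 0.06, edgeR adjusted p = 0.283) led that list in opposite directions. The 9 relatives in termination and recycling had a median of -0.03, led by Eif2d (0.19, SE 0.14) and Mcts1 (-0.13, SE 0.11), both factors that recycle 40S subunits. No gene of these 3 lists passed.

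**Figure D5:**
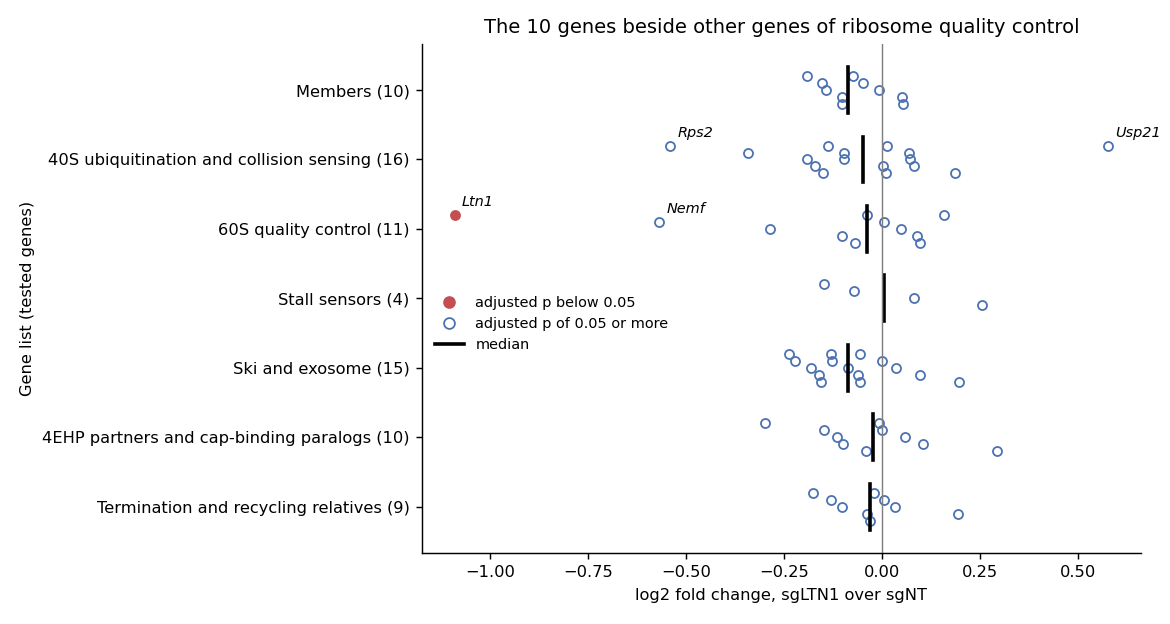
Log2 fold change of sgLTN1 over sgNT (horizontal axis) for the members and for 6 lists of related genes, 1 point per tested gene, with a black bar at each median and a filled point where the edgeR adjusted p was below 0.05. Ltn1 at -1.09 is the 1 filled point, and the members lie between -0.19 and 0.05; Usp21 and Rps2, at either side of the 40S list, held 1 to 27 and 7 to 17 counts a library.

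The genes whose values over the 6 libraries ran most like a member's were sought among 7513 others with a mean of at least 10 CPM, by the root mean square distance between log2 values centred on their own mean. For Ascc2 they were Cog4, Gstm5 and Ly6e, at distances of 0.0279 to 0.0345. For Edf1 they were Bdh1, Rnf5 and Adh5, at 0.0227 to 0.0370, and for Abce1 they included Prepl and Map3k2, at 0.0288 and 0.0308. With so many profiles over so few libraries, close ones are found for any gene, and none of the genes named here passed in edgeR's test.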

How the data were processed

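The 10 members and all gene lists were chosen with earlier results of these data known. The authors deposited whole-number read counts per gene. The submitters' processing notes name STAR 2.7.11a, Bowtie2 2.5.4, featureCounts 2.12.3, UMI-tools 1.1.2, fastp 0.23.4 and SAMtools 1.9, with build GRCm39. Annotation, strand and multi-mapping settings were not given in the sources used here. The authors' second deposited table holds DESeq2 (1.38.3) output per the file headers: a signal level (mean normalized count), log2 fold change with standard error, Wald statistic as a score, and p-values.

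The main test used edgeR 4.0.16 in R 4.3.3 (filterByExpr, TMM, quasi-likelihood test, group as the only term, all 6 libraries, Benjamini-Hochberg over 12782 genes, threshold 0.05), with limma 3.58.1 and DESeq2 1.42.0 as alternatives. Standard errors come from the F statistic and 95% intervals from its degrees of freedom. The fits were also run on simulated counts whose spread followed only the trend with abundance, not that of each gene. The outcome is not given here and is not used as support. RefSeq tables (GRCm38.p6), of another build than the counts, gave promoter windows for 10 of 10 members, cut to 250 bases before the start, and overlapping spans. Replicates differed by more than sampling noise. The chi-square per degree of freedom was 3.01 to 4.41 for pairs of sgNT libraries and 2.55 for sgLTN1 libraries 1 and 2. Pairs with sgLTN1 library 3 differed most, at 7.11 with library 1 and 5.27 with library 2. All members are named, and of each related list the genes called and the 2 with the smallest p; 1 gene of the likeness search is not reported here. A planned ranking by footprints per coding length was not made, since no coding length was used here. Depth, 4373467 to 11198735 counts, limits the genes of low count most; intervals cover the spread between these libraries.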

Additional observations from a re-analysis of the deposited data

How the results depend on the processing

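No member was called under any of the 14 alternatives, with adjusted p-values of at least 0.200 where one was given. The sign of Ascc2, Trip4, Edf1 and Abce1 did not turn in any of them, but leaving out 1 library moved their log2 fold changes, from -0.24 to -0.15 for Ascc2, -0.20 to -0.055 for Trip4, -0.17 to -0.0087 for Edf1 and -0.17 to -0.087 for Abce1. The value nearest 0 came without sgLTN1 library 2 for Trip4 and Abce1 and without sgNT library 2 for Ascc2 and Edf1. Hbs1l was at 0.00086 with RLE scaling, 0.018 with DESeq2 and 0.012 with no filter, Ascc1 at 0.0056 with limma-voom, and Ascc3 and Gigyf2 at -0.019 and -0.023 with total counts. With 1 library left out, Ascc3 ran from 0.0019 to 0.12, Gigyf2 from 0.0016 to 0.10, Ascc1 from -0.27 to 0.14, Hbs1l from -0.065 to 0.087, Eif4e2 from -0.15 to 0.0043 and Pelo from -0.14 to 0.013. Over all tested genes, 23 calls (11 higher, 12 lower) became 42 (34 lower) with total counts, 227 (183 and 44) with DESeq2, 40 (19 and 21) with limma-voom, 222 (106 and 116) with no filter, 37 (22 higher) with at least 50 counts in every library, and 7 higher with the abundance trend removed. Leaving out 1 library gave 4 to 333 calls, 0 to 191 higher and 4 to 142 lower, with the most calls without sgLTN1 library 3 and the fewest without sgLTN1 library 2. With the replicate block, 609 genes were called (406 and 203), none a member. Same-numbered libraries deviated together with r of -0.05, 0.07 and 0.09, and differently numbered ones with r from -0.119 to 0.0953. The labels do not say whether same-numbered libraries are pairs, and these values do not settle it. The main test does not treat them as pairs. The number of genes called in the 6 related lists did not change in any of 84 values, and their medians moved by more than the spread between libraries in 23 of 84. With at least 50 counts in every library Eif4e2 was not tested. The causes of these shifts were not tested.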

Other observations

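A pair of genes outside the naming rule was picked after their values were seen. Eif4e3, a cap-binding relative of Eif4e2, read 11.0, 7.17 and 7.33 CPM in sgNT libraries 1 to 3 and 4.24, 5.10 and 20.5 CPM in sgLTN1 libraries 1 to 3, so 1 library held most of its footprints in that group. Nemf, which recruits Listerin to the 60S subunit, read 44.9, 96.1 and 102 CPM in sgNT and 69.8, 46.0 and 47.9 CPM in sgLTN1, with a log2 fold change of -0.57 (SE 0.25, edgeR adjusted p = 0.310). Its sgNT library 1 lay below every sgLTN1 library.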
